A study of Oryza sativa with 6 samples.

Results

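The DETOXIFICATION genes of rice (Oryza sativa) roots were compared under cadmium with and without Fo10. They encode transporters of the multidrug and toxic compound extrusion (MATE) family. Members were the rice gene models whose deposited description begins with "Protein DETOXIFICATION", 42 of 40745 gene models in a table of 42031 features. Only 5312 gene models had a description that cites a database, so further MATE genes may lie among the rest. All 42 descriptions cite a protein database, but none of the 42 rows carries a gene name or a family number, so no substrate or role is given here for any single member. RNA sequencing was done on 6 libraries from roots of wild-type plants grown in a greenhouse. The first group, Fo+Cd, held 3 libraries of roots given 0.5% Fo10 together with 10 µM cadmium (Cd). The other, Cd, held 3 libraries of roots given 10 µM Cd alone. The nature of Fo10, the cultivar, the length of the treatment and the number of plants in a library are not stated in the labels. Since every library received Cd, the comparison concerns Fo10 and not Cd. The labels leave unstated whether replicates were grown separately, so a p-value here reflects the spread among libraries that may be technical repeats.

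MATE proteins are secondary transporters of the membrane. They carry organic compounds out of the cytosol, into the vacuole or out of the cell, in exchange for protons or sodium ions, and the proton gradients are made by proton-pumping ATPases of both membranes. The plant family is large and its known substrates range from citrate to flavonoids, alkaloids and toxic compounds. In rice roots FRDL1 releases citrate for iron transport in the xylem and FRDL4 releases citrate under aluminium. In Arabidopsis DTX1, the founding member of the DETOXIFICATION name, exports toxic compounds and was found to detoxify Cd in bacteria.

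Values were the authors' TPM, a unit that corrects for transcript length and scales each library to a fixed total, and it keeps no record of how many reads lie behind a value. The listed features summed to 963281 to 966767 TPM per library, and 20861 to 21126 of them reached 1 TPM. Markers of shoot tissue (25 photosynthesis genes) summed to 23.4 to 33.2 TPM in Fo+Cd and 23.9 to 26.0 TPM in Cd, and 7 of the 25 were at 0 in all libraries. The 4 Casparian strip membrane proteins, which mark the root endodermis, summed to 181 to 193 TPM in Fo+Cd and 209 to 240 TPM in Cd. Their sums did not overlap between the groups. None of the 4 genes was called by limma (3 with unadjusted p under 0.05, beside 15.4% of all tested features). Their part in the results below was not tested. The highest single value among the 4 genes was 182 TPM, so 1 gene held most of the sum in that library. The other root genes planned as markers are not given here.

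Of the 42 DETOXIFICATION genes, 3 were higher in Fo+Cd roots and none was lower, among 32 that could be tested. BGIOSGA024257 stood 4.89-fold higher and BGIOSGA022958 6.28-fold higher as ratios of mean TPM, and BGIOSGA032643 stood 1.80-fold higher. The other 29 tested members had ratios closer to 1, and 22 of them had a log2 fold change above 0. The test was limma on log2(TPM + 1) over the 21166 features that reached 1 TPM in 3 or more libraries, and a gene was called at a Benjamini-Hochberg adjusted p under 0.05 over all of them. By that rule 2.45% of all tested features were called, with 1.72% called higher and 0.723% called lower, against 9.38% of the tested members, all higher. These background shares rest on 365 higher and 153 lower features, and the lower calls numbered 359 without Cd replicate 2 and 26 without Cd replicate 3. Among features whose description cites a database, as all members' do, 2.19% were called. In bulk roots, fewer cells of a type and less RNA per cell cannot be told apart, and this holds for every difference given here.

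BGIOSGA024257 was at 41.4, 45.0 and 37.9 TPM in Fo+Cd replicates 1, 2 and 3, against 8.28, 7.64 and 9.51 TPM in the Cd replicates. All Fo+Cd libraries were far above all Cd libraries, and the spread within each group was small beside the gap. The means were 41.4 ± 3.54 TPM in Fo+Cd and 8.48 ± 0.950 TPM in Cd (SD, n = 3 each; limma log2 fold change 2.16, SE 0.113, adjusted p = 0.000216). By p it ranked 21 of the 21166 features. The same gene was the member with rank 3 by level in Fo+Cd roots and rank 13 in Cd roots.

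BGIOSGA022958 was near the lower filter in Cd roots. It was at 6.78, 8.20 and 6.38 TPM in Fo+Cd replicates 1, 2 and 3, against 1.19, 1.16 and 1.05 TPM in Cd. The groups did not overlap, and all Cd values lay within a narrow range just over 1 TPM. The log2 fold change was 1.92 (limma, SE 0.148, adjusted p = 0.000988), which is smaller than the log2 of the ratio of means because 1 TPM was added to each value. Its rank by level among the members was 19 in Fo+Cd and 30 in Cd.

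BGIOSGA032643 was at 19.8, 23.4 and 21.0 TPM in Fo+Cd, against 11.5, 12.6 and 11.6 TPM in Cd. Each Fo+Cd library exceeded each Cd library (limma log2 fold change 0.79, SE 0.102, adjusted p = 0.0105). This call was lost in some fits that left out a library: the adjusted p was 0.0599 without Fo+Cd replicate 3 and 0.0539 without Cd replicate 3. The log2 fold changes there were 0.80 and 0.78. Calls over all features went from 518 to 189 and 240 in those fits. BGIOSGA024257 and BGIOSGA022958 were called in all 14 alternative fits that were run. All 3 called genes were at 1 TPM or more in all 6 libraries, so none of them passed the filter through 1 group alone.

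**Figure D1:**
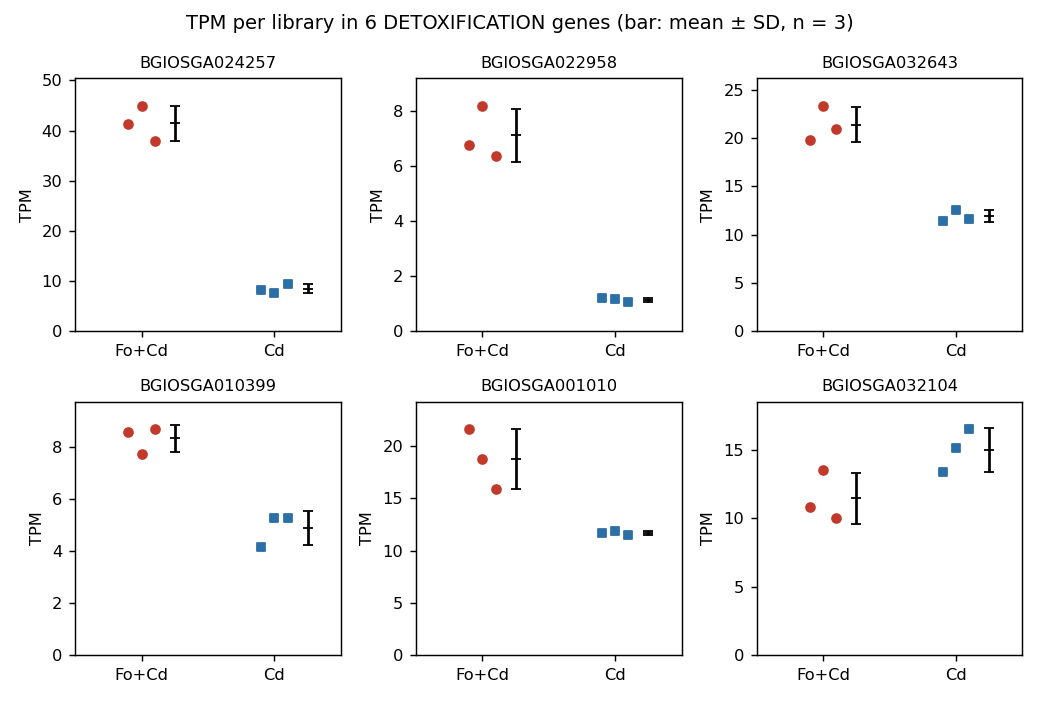
TPM in each library for 6 DETOXIFICATION genes, with Fo+Cd (circles) left of Cd (squares), and the mean ± SD of 3 libraries beside the points. In the upper row, the 3 called genes, and for BGIOSGA010399 and BGIOSGA001010 in the lower row, all Fo+Cd points lie above all Cd points, while BGIOSGA032104 overlaps and has the higher mean in Cd.

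A further pair of genes came close to the threshold and did not pass. BGIOSGA010399 was at 8.60, 7.73 and 8.69 TPM in Fo+Cd, against 4.15, 5.27 and 5.28 TPM in Cd (limma log2 fold change 0.67, SE 0.133, adjusted p = 0.0564). BGIOSGA001010 was at 21.6, 18.8 and 15.9 TPM in Fo+Cd, against 11.7, 11.9 and 11.5 TPM in Cd (limma log2 fold change 0.63, SE 0.125, adjusted p = 0.0571). In both genes the groups were apart, but BGIOSGA001010 varied far more among its Fo+Cd libraries than among its Cd libraries. BGIOSGA010399 was called with plain empirical Bayes (adjusted p = 0.0490). BGIOSGA001010 was called with the filter at 5 TPM, with median scaling and with quantile normalization (adjusted p 0.0455 to 0.0479). BGIOSGA011178, the next by p, was at 8.86, 11.6 and 9.24 TPM in Fo+Cd, against 6.88, 6.28 and 6.65 TPM in Cd, with an adjusted p of 0.117 in limma.

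The most abundant member in every library was BGIOSGA011208. It was at 84.5, 101.0 and 99.1 TPM in Fo+Cd, against 71.9, 76.4 and 60.0 TPM in Cd, and its lowest value exceeded the highest value of any other member. The groups did not overlap, but the difference did not pass (limma log2 fold change 0.45, 95% interval 0.16 to 0.73, adjusted p = 0.131). BGIOSGA010395 followed at 46.5, 54.6 and 49.0 TPM in Fo+Cd and 38.3, 41.9 and 36.7 TPM in Cd, also without overlap and without a call (log2 fold change 0.35, limma adjusted p = 0.132). In Fo+Cd roots its values lay above those of BGIOSGA024257 in each library, and in Cd roots above those of BGIOSGA001564.

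BGIOSGA001564 was among the steadiest of the abundant members, at 38.5, 43.5 and 40.3 TPM in Fo+Cd, against 33.8, 35.3 and 35.2 TPM in Cd (log2 fold change 0.22, limma adjusted p = 0.253). In Fo+Cd roots its values overlapped those of BGIOSGA024257, so these genes do not differ in level there beyond their spread. BGIOSGA020326 was at 28.8, 37.1 and 33.6 TPM in Fo+Cd, against 27.3, 18.2 and 18.0 TPM in Cd (log2 fold change 0.64, limma adjusted p = 0.138). Cd replicate 1 was its high Cd library, and without that library the gene was called (log2 fold change 0.83, adjusted p = 0.0454). BGIOSGA013906 was at 17.1, 20.9 and 26.4 TPM in Fo+Cd, against 22.6, 16.5 and 26.2 TPM in Cd. Both groups of BGIOSGA013906 covered the same range (log2 fold change -0.016, 95% interval -0.51 to 0.48, limma adjusted p = 0.979).

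**Figure D2:**
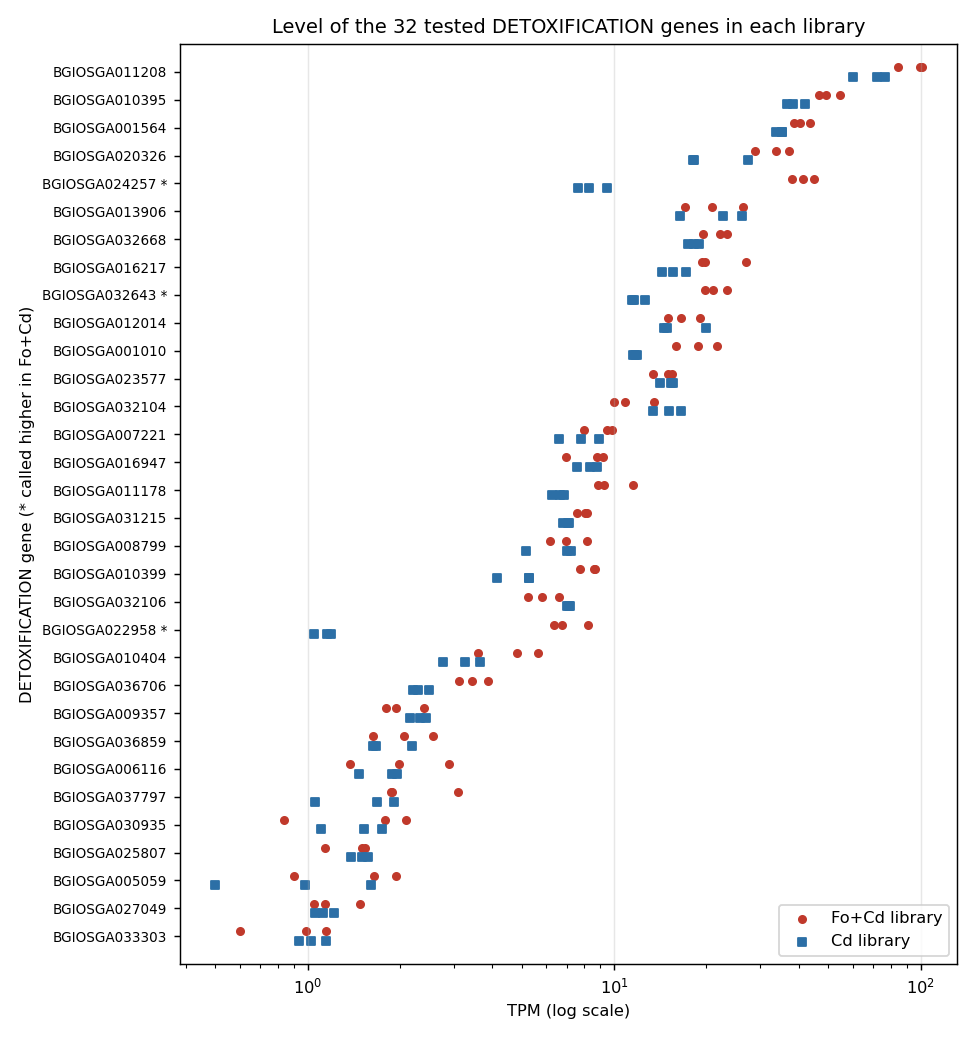
TPM (log scale) of the 32 tested DETOXIFICATION genes in each of the 6 libraries, ordered by mean level, with Fo+Cd circles drawn just above Cd squares in each row. BGIOSGA011208 lies highest in all libraries, and the starred genes BGIOSGA024257, BGIOSGA032643 and BGIOSGA022958 have Fo+Cd values clear of their Cd values.

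The fold change was below 0 in 7 tested members, none of which was called. BGIOSGA032104 was at 10.8, 13.5 and 9.99 TPM in Fo+Cd, against 13.3, 15.1 and 16.5 TPM in Cd, with an overlap between Fo+Cd replicate 2 and Cd replicate 1 (log2 fold change -0.37, 95% interval -0.70 to -0.037, limma adjusted p = 0.274). BGIOSGA032106 was at 5.24, 5.83 and 6.59 TPM in Fo+Cd, against 7.12, 7.19 and 7.02 TPM in Cd. It was the 1 tested member whose Fo+Cd values all lay below its Cd values (log2 fold change -0.24, limma adjusted p = 0.408). BGIOSGA023577 differed by less than its spread, at 13.4, 15.0 and 15.5 TPM in Fo+Cd and 15.3, 15.6 and 14.1 TPM in Cd (log2 fold change -0.034, limma adjusted p = 0.909).

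Over the 32 tested members the log2 fold changes ran from -0.37 to 2.16 with a median of 0.21, beside a median of 0.0025 over all tested features (0.021 over those with a database source). The fold change was above 0 in 25 members, a share of 78.1% above 0 against 50.4% of all tested features. The groups were apart with Fo+Cd higher in 14 members and with Fo+Cd lower in 1, together 46.9%, while the groups of 21.3% of all tested features did not overlap (11.3% with Fo+Cd higher and 10% with Fo+Cd lower). Unadjusted limma p-values were under 0.05 in 14 members, 13 of them higher, beside 15.4% of all tested features. Leaving aside the 3 called genes, the median of the other 29 was 0.15, and 22 of them had a fold change above 0. These counts describe members that share libraries, and no test was made of the family as a whole.

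The tested members with a mean of at least 10 TPM over all libraries had a higher median fold change than the rest. Of these 13, 9 had groups apart with Fo+Cd higher, and their median log2 fold change was 0.35. Of the 19 members under 10 TPM, 5 had groups apart with Fo+Cd higher and 1 with Fo+Cd lower, and their median was 0.13. Over all tested features the corresponding medians were 0.0044 at 10 TPM or more and -0.0027 under it, and the groups were apart with Fo+Cd higher in 11.8% and 10.6% of features. The difference between the classes of members was not tested. BGIOSGA024257 was in the upper class only through its Fo+Cd values, with means of 41.4 TPM in Fo+Cd and 8.48 TPM in Cd. Adding 1 TPM to each value also compresses the changes of genes near 1 TPM, so the classes are not on equal terms.

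**Figure D3:**
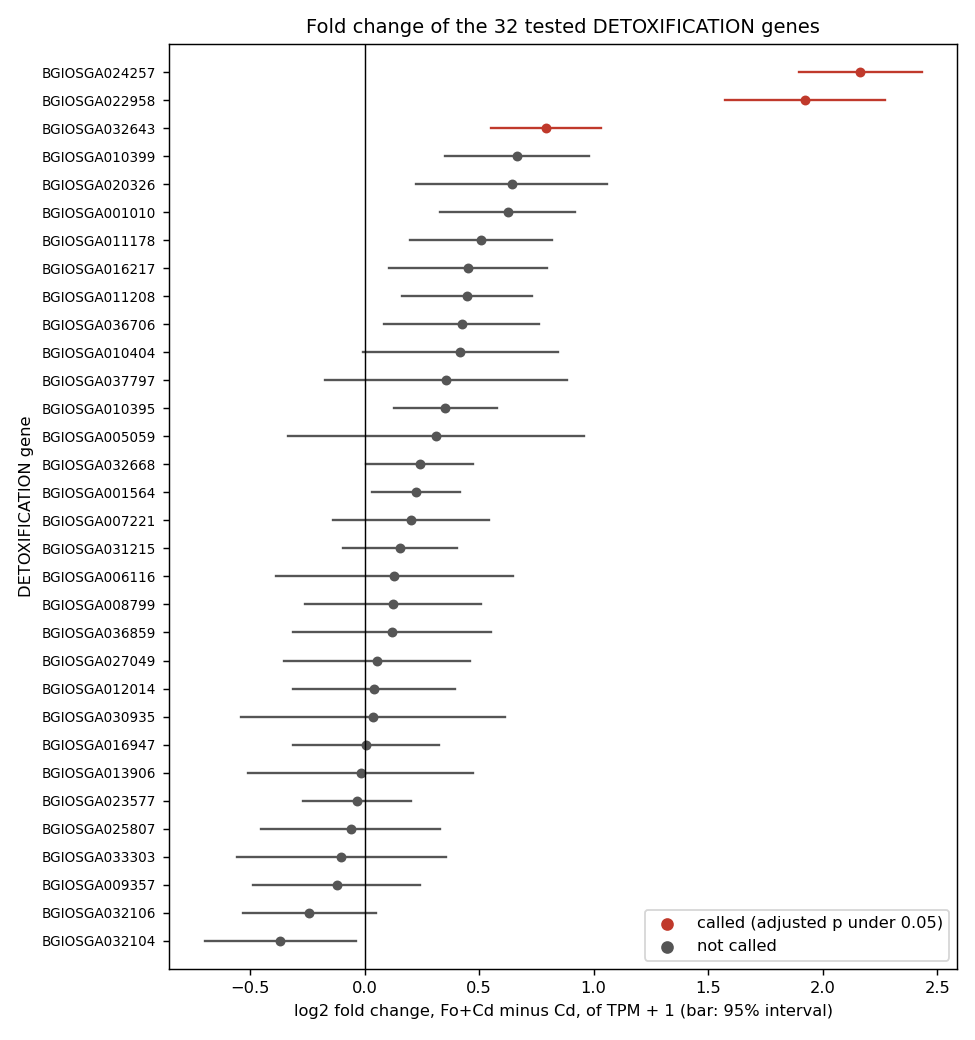
Log2 fold change (Fo+Cd minus Cd, of TPM + 1) of each tested DETOXIFICATION gene with its 95% interval from limma, highest at the top. The 3 called genes are in red, and BGIOSGA032104, at -0.37, lies lowest with an interval that ends below 0.

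Intervals show what these libraries leave possible for the 29 genes that were not called. In 28 of them the 95% interval of the log2 fold change stayed under 1, and the exception was BGIOSGA020326, with an upper bound of 1.06. The lowest lower bound was -0.70, that of BGIOSGA032104. The intervals are on the log2(TPM + 1) scale, which compresses the changes of genes near 1 TPM, and they are not adjusted for the number of genes. The coefficient of variation within groups had a median of 12.9% over the tested members, from 3.18% in BGIOSGA031215 to 43.4% in BGIOSGA005059.

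**Figure D4:**
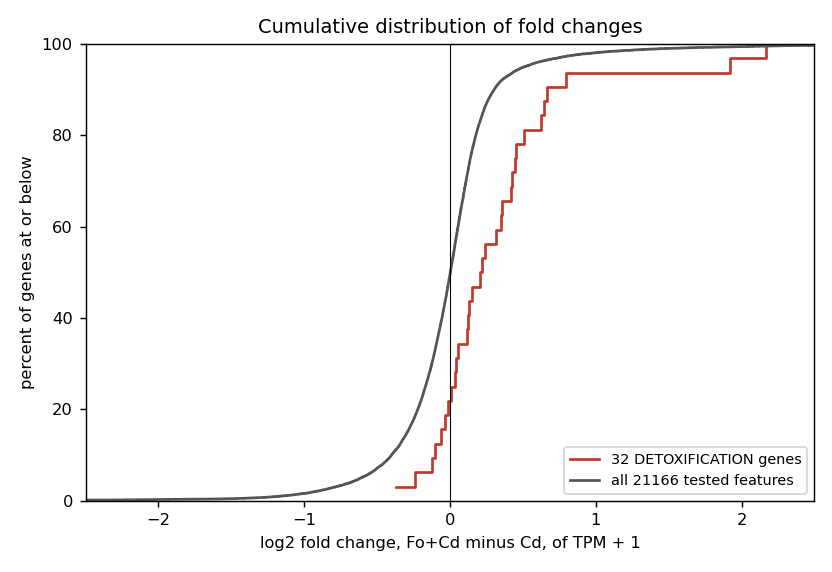
Percent of genes at or below each log2 fold change (Fo+Cd minus Cd, of TPM + 1) for the 32 tested DETOXIFICATION genes (red) and all 21166 tested features (grey); 101 features lie outside the plotted range. The red line lies right of the grey line around the middle of the distribution, with medians of 0.21 and 0.0025.

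A total of 10 members did not pass the filter. Of these, BGIOSGA000755 and BGIOSGA009399 were listed at 0 in all 6 libraries, and the other 8 had means of at most 0.687 TPM. The highest single value among the 10 was 1.26 TPM, in BGIOSGA032737. That gene was at 0.23, 0.74 and 0.14 TPM in Fo+Cd, against 1.11, 0.52 and 1.26 TPM in Cd, and the groups overlapped. Of the 32 tested members, 29 reached 1 TPM in all libraries, and BGIOSGA005059, BGIOSGA030935 and BGIOSGA033303 fell under it in some, and none of these was called. By mean level over all libraries, 3 members were at 30 TPM or more, 10 between 10 and 30 TPM, 18 between 1 and 10 TPM and 9 above 0 but under 1 TPM.

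Some members have identifiers whose numbers differ by 10 or less from that of another member; where these genes lie in the genome was not used here. BGIOSGA010395, BGIOSGA010399 and BGIOSGA010404 form the only such set of 3, and their log2 fold changes were 0.35, 0.67 and 0.42. BGIOSGA010404 was at 3.61, 4.81 and 5.65 TPM in Fo+Cd, against 2.77, 3.26 and 3.64 TPM in Cd, with a slight overlap and no call (limma adjusted p = 0.330). All 3 had higher means in Fo+Cd, and none was called. BGIOSGA032104 and BGIOSGA032106 are likewise close in number and had the 2 lowest fold changes of the tested members. The called gene BGIOSGA032643 differed from its close number BGIOSGA032648, which did not pass the filter, at 0.41, 0.59 and 0.63 TPM in Fo+Cd and 0.53, 0.22 and 0.36 TPM in Cd. BGIOSGA036706 was at 3.44, 3.12 and 3.87 TPM in Fo+Cd, against 2.30, 2.20 and 2.49 TPM in Cd, with the groups apart and an adjusted p of 0.218 in limma. Its close number BGIOSGA036710 was at 0 in all Fo+Cd libraries and at most 0.06 TPM in Cd. Reads may be shared between similar members of a family, and how the authors' counting assigned such reads is not given in the sources used here, so values of single members are uncertain to that extent.

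The summed level of the 42 genes was 462, 524 and 506 TPM in Fo+Cd replicates 1, 2 and 3, against 374, 372 and 363 TPM in the Cd replicates. Every Fo+Cd sum exceeded every Cd sum, and the means were 497 ± 31.9 TPM in Fo+Cd and 369 ± 5.49 TPM in Cd (SD, n = 3 each), a ratio of 1.35. As a share of the listed TPM this was 0.0479% to 0.0544% in Fo+Cd and 0.0376% to 0.0388% in Cd. BGIOSGA024257 supplied 25.8% of the difference between the mean sums and BGIOSGA011208 19.9%. Without the 3 called genes the sums averaged 428 ± 29.1 TPM in Fo+Cd and 348 ± 6.12 TPM in Cd, a ratio of 1.23.

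**Figure D5:**
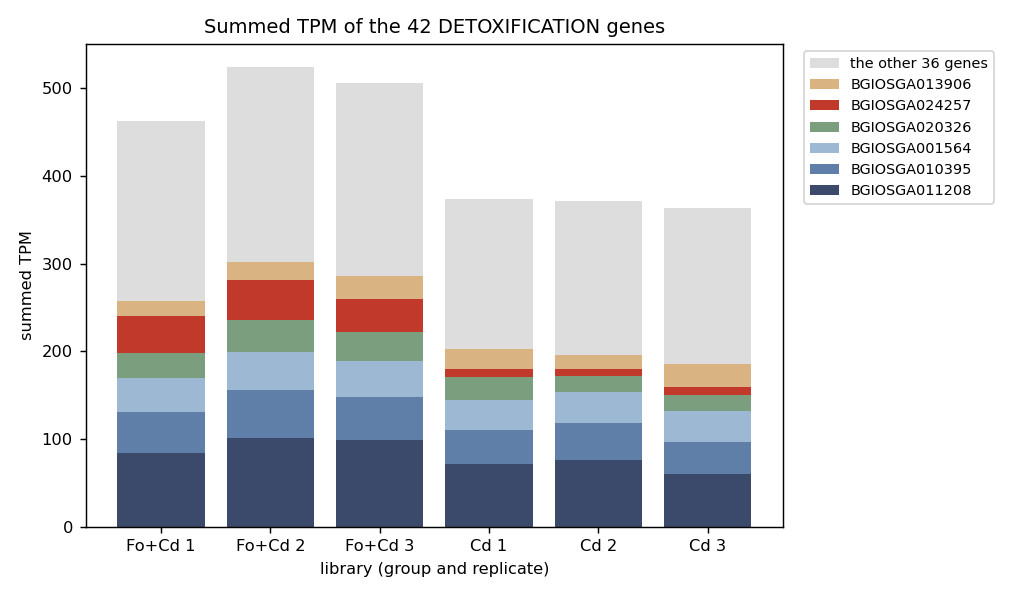
Summed TPM of the 42 DETOXIFICATION genes in each library, divided into the 6 members with the highest mean level and the other 36. The Fo+Cd bars reach 462 to 524 TPM and the Cd bars 363 to 374 TPM, and the red segment is BGIOSGA024257, at 8.33% of the mean sum in Fo+Cd and 2.29% in Cd.

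The abundant genes set these sums: the 6 members with the highest mean level held 54.9% of the family's TPM over all libraries. BGIOSGA011208 held 19.1% of the mean sum in Fo+Cd and 18.8% in Cd, so its share was nearly equal. Its mean level was higher in Fo+Cd, without a call. Among the Fo+Cd libraries, replicate 1 was the lowest for 15 of the 32 tested members and replicate 2 the highest for 15. In Cd, 7, 12 and 13 members were highest in replicates 1, 2 and 3, against 5, 15 and 12 in Fo+Cd. The summed levels lay closer together in Cd than in Fo+Cd.

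Genes whose products act beside MATE exporters were taken from descriptions that cite a database. Such descriptions cover 5312 of 40745 gene models, so the lists here and below may miss genes of these families. Beside the lists' counts of unadjusted p, 15.4% of all tested features had an unadjusted limma p under 0.05. No subunit of the V-type proton ATPase, the pump that acidifies the vacuole, was called by limma among 14 tested (2 with unadjusted p under 0.05, median log2 fold change 0.10). The subunit H gene BGIOSGA025913 had the smallest p, at 143 ± 3.91 TPM in Fo+Cd and 122 ± 0.433 TPM in Cd (SD, n = 3 each; limma adjusted p = 0.216). None of 4 plasma membrane proton ATPases was called by limma (2 with unadjusted p under 0.05, median 0.17). Of these, BGIOSGA025316 was at 74.7, 67.7 and 64.5 TPM in Fo+Cd, against 50.3, 57.1 and 55.2 TPM in Cd, without overlap (limma adjusted p = 0.134). None of 3 genes with "citrate synthase" in the description was called by limma (0 with unadjusted p under 0.05, median 0.18). The search also took ATP-citrate synthase, so not all 3 need make the citrate that some MATE proteins carry. Of the 3 genes, BGIOSGA006961 had the smallest p, at 119 ± 1.98 TPM in Fo+Cd and 104 ± 9.61 TPM in Cd (limma adjusted p = 0.371).

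Other transporter families gave the following counts in the same fit. The WAT1-related proteins are a family that holds the Arabidopsis vacuolar auxin exporter WAT1. Of 25 tested, 2 (8%) were called higher and none lower, with a median log2 fold change of 0.16. Over all tested features 1.72% were called higher and 0.723% lower. BGIOSGA022528 was at 7.17, 10.8 and 6.02 TPM in Fo+Cd, against 0.72, 1.49 and 1.07 TPM in Cd (limma log2 fold change 2.09, adjusted p = 0.00672). With Cd replicate 1 under 1 TPM, this gene passed the filter of 3 libraries only through its Fo+Cd values. The abundant BGIOSGA024199 was at 117, 143 and 129 TPM in Fo+Cd, against 76.9, 75.4 and 69.3 TPM in Cd (log2 fold change 0.80, limma adjusted p = 0.00966). Its call was lost without Fo+Cd replicate 3 or Cd replicate 3 (adjusted p 0.0578 and 0.0507), the same libraries without which BGIOSGA032643 lost its call. The groups of 24% of the tested WAT1-related proteins did not overlap, a share near the 21.3% of all tested features. The number of WAT1-related proteins called was 3 without Fo+Cd replicate 1 or Cd replicate 2.

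Of the ABC transporters, which move compounds at the cost of ATP, none of the 16 tested genes whose description cites a database was called by limma (4 with unadjusted p under 0.05, median 0.05). ABCG36 (BGIOSGA001233) had the smallest p among them, at 33.1 ± 10.1 TPM in Fo+Cd and 16.6 ± 3.92 TPM in Cd (limma adjusted p = 0.149). A further 8 tested ABC transporter genes, named or described as such without a database source, were left out of that list, and 6 of them were called higher and 1 lower. Of all 226 tested gene models described without a source, 206 were called, so these genes cannot be read beside the sourced list. Of 7 tested bidirectional sugar transporters, 6 had a log2 fold change below 0, with a median of -0.47. SWEET1a (BGIOSGA004923) was the 1 called, lower, at 15.7, 13.0 and 11.8 TPM in Fo+Cd, against 35.9, 21.6 and 30.9 TPM in Cd (log2 fold change -1.05, limma adjusted p = 0.0446). That call was lost without any one library except Cd replicate 2 (adjusted p 0.0886 to 0.162), with no filter (0.0803) and with plain empirical Bayes (0.0680). Neither of 2 tested nitrate and NRT1/PTR transporters was called by limma (1 with unadjusted p under 0.05), the lower p being that of BGIOSGA022659, at 15.2 ± 0.608 TPM in Fo+Cd and 9.66 ± 2.05 TPM in Cd (limma adjusted p = 0.112). Whether the DETOXIFICATION genes differ as a group from these families was not tested.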

How the data were processed

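RNA was taken from roots of 6 samples, and stranded poly(A) libraries were made from 1 µg of total RNA, per the labels' protocols. The authors deposited 1 table of TPM values. The unit was recognised from the values; for the aligner, the counting program and the build, "not given in the sources used here" applies. The authors' 2 columns of group means were not used. Values were transformed to log2(TPM + 1), features reaching 1 TPM in 3 or more libraries were tested, and Fo+Cd minus Cd was fitted in limma 3.58.1 (R 4.3.3; moderated variances with a trend and robust estimation, without covariates). Benjamini-Hochberg adjustment ran over all 21166 features. In 5 simulated sets of 20871 to 20892 genes for this comparison, the fit called 71% of the genes given a 2-fold change and 91.8% of those given a 4-fold change, with 7.8 false calls per set. Changes were added to log2(TPM + 1), only in genes with a mean above 5 TPM on that scale, with independent noise per gene. These rates therefore do not cover members at lower levels, such as BGIOSGA022958. Tables were made with pandas 2.3.3 and Python 3.11.15. Named members were those called, the 8 with the smallest p, the 6 with the highest mean, and the 3 highest and 3 lowest fold changes at 5 TPM or more; of each other list, the called genes and the one with the smallest p. Further members are named for low levels, spread, intervals or close identifier numbers and were chosen after their values were seen. Alternatives were other pseudocounts, filters, scalings and variance settings, a replicate block and leaving out each library. The members and lists were chosen with earlier results of these data known. No libraries were identical: at most 1.23% of values above 0 in both libraries of a pair were equal. That share was of Fo+Cd replicates 1 and 2, and all other pairs lay at 0.250% to 0.580%. The cause was not tested. Replicate numbers were not taken as pairs, since the labels name no pairing. No sourced description matched the searches for aluminum-activated malate transporters and for MATE genes under other descriptions, so these have no result. Such genes may still be among the gene models without a description.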

Additional observations from a re-analysis of the deposited data

How the results depend on the processing

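Depth is unknown for TPM, so no counting error could be set beside any value. The DETOXIFICATION genes called numbered 3 or 4 under the pseudocounts 0.1 and 5, no filter, a filter at 5 TPM, median scaling, quantile normalization and plain empirical Bayes, and 2 to 4 when single libraries were left out; BGIOSGA024257 and BGIOSGA022958 were among them each time, and no member was called lower in any fit. The members' median log2 fold change of 0.21 was 0.13 with a pseudocount of 5, 0.13 with no filter, which adds members near 0 TPM, and 0.18 to 0.23 with single libraries left out. Over all features, 518 calls (365 higher, 153 lower) became 189 to 726 (137 to 367 higher, 26 to 359 lower) with single libraries left out, and 353 (239 higher) with a replicate block; 96 were lower with no filter. Correlations of deviations were -0.033, 0.085 and 0.073 between same-numbered libraries, and -0.12 to 0.069 between libraries with unlike numbers. With 3 libraries in each group these values cannot exclude pairing. The numbers were not taken as pairs because the labels name no pairing. The block kept the same 3 DETOXIFICATION calls and added ABCG36 (adjusted p = 0.0215) and brought the WAT1-related calls to 3. BGIOSGA013906 and BGIOSGA023577, both near 0, changed sign when single libraries were left out (log2 fold changes -0.20 to 0.13 and -0.074 to 0.023); the cause was not tested.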

Other observations

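One gene outside the family matched the search for MATE genes under other descriptions, through the words "citrate transporter". The match was by these words alone and does not make the gene a MATE gene. What its product carries was not tested. SIET5 (BGIOSGA033055), described as similar to a citrate transporter family protein, was at 9.19, 11.8 and 10.6 TPM in Fo+Cd, against 4.83, 5.54 and 3.95 TPM in Cd. All Fo+Cd values lay above all Cd values (limma log2 fold change 1.00, SE 0.153, adjusted p = 0.0213). Unlike the descriptions of the DETOXIFICATION genes, its description cites no database, and it was left out of the lists for that reason. Of the 226 tested gene models described without a source, 206 were called.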
